A study of Mus musculus with 8 samples.

Results

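Transcripts of 10 genes that build epithelial tight junctions, namely Cldn2, Cldn3, Cldn4, Cldn7, Cldn12, Cldn15, Cldn23, Tjp1, Ocln and F11r, were followed in sorted jejunal epithelial cells of mice. The genes were taken by name and found by their Ensembl identifiers. All 10 were among the 48440 genes of the deposited table, and all 10 passed the expression minimum. The conventionalized (CV) group was 4 female Sox9-EGFP animals of the C57BL/6J strain that had been raised germ-free. At 8 to 10 weeks of age they were moved to a conventional animal house and gavaged with a faecal slurry from the conventionally raised Sox9-EGFP colony, and they were studied 2 weeks later. The germ-free (GF) group was 4 female littermates that stayed germ-free, so each littermate pair, A to D, gave 1 animal to each group. All 8 animals carried the Sox9-EGFP reporter, and the cells kept had a low reporter signal and were negative for Annexin-V, CD31, CD45 and Sytox-blue. The comparison asks how a microbiota bears on epithelial stem cell populations. The slurry and the change of animal house went together and cannot be told apart.

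Tight junctions seal the space between neighbouring epithelial cells near their apical side. Claudins are the membrane proteins that form the strands of the junction: some form channels for small cations and water, others tighten the barrier. Occludin and junctional adhesion molecule A lie in the same membrane complex, and scaffold proteins of the zonula occludens family tie it to the actin cytoskeleton. In the small intestine the channel-forming claudins return sodium to the lumen, which the uptake of glucose and other nutrients needs.

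Approximate read depth was 9363886 to 19139683 in CV libraries and 6209041 to 11648527 in GF libraries. One GF library, that of pair C, had the least depth and stood apart, with a median correlation of 0.792 to the others of its group, against 0.871 to 0.943 for the other 7. Epcam, an adhesion protein of epithelial cells, was at 1636 to 3018 CPM (counts per 1000000, scaled with TMM factors) in CV and 933 to 1771 CPM in GF libraries. Sums over 18 leukocyte markers were 14.7 to 35.3 CPM in CV and 27.1 to 39.0 CPM in GF libraries. Sums over 19 endothelial and stromal markers were 62.3 to 109 CPM in CV and 130.2 to 213 CPM in GF libraries. These sums did not overlap, with every GF library above every CV one. Of single genes past the expression minimum 5.88% lay this way. Only 4 of the 19 markers passed that minimum, 3 with a lower and 1 with a higher fitted level in CV. The cause was not tested.

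The promoters of Cldn2, Cldn15 and Cldn4 are shown because these are the 3 genes called once littermates are paired. Each is the 250 bases before the RefSeq start in GRCm38.p6, on the strand of the gene, at chrX:139800558-139800807 (plus strand), chr5:136967619-136967868 (plus strand) and chr5:134946935-134947184 (minus strand). Capitals mark matches, on either strand, to any of 6 short motifs named after the sequences, and no matches overlap.
Cldn2: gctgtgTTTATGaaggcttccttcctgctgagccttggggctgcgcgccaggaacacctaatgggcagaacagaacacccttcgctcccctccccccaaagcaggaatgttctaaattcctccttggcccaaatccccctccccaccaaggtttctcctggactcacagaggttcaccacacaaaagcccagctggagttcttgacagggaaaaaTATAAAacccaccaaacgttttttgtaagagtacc
Cldn15: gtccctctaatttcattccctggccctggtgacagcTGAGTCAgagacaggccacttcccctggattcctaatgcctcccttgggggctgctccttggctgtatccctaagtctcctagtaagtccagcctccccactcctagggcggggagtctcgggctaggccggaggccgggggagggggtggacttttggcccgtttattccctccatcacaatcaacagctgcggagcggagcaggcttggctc
Cldn4: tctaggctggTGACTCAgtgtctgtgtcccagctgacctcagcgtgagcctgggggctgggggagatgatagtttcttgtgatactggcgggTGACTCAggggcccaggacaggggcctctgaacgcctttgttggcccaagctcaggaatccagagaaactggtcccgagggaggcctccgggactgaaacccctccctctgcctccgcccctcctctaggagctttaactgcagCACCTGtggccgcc
The Cldn2 window held the TATA box letters TATAAA, beginning 35 bases before the start, which 12.4% of the 32851 windows in the RefSeq table also held. It held the CDX letters TTTATG as well, 244 bases before the start, and these were in 10.8% of all windows. The AP-1 letters TGACTCA were in 4.46% of all windows and stood 214 bases before the Cldn15 start, as their complement, and 240 and 158 bases before the Cldn4 start. The E-box letters CACCTG, in 17.2% of all windows, stood 14 bases before the Cldn4 start. Of the 10 genes 9 were in the promoter table, all but Cldn23, with 13 windows because some have several starts. Genes that were not called held matches too: F11r had AP-1 letters 109 bases before its start and an E-box, and a window each of Cldn7 and Ocln had 2 E-boxes. None of the 13 windows held the TCF/LEF letters CTTTGA, found in 13.8% of all windows, or the GATA factor letters, found in 9.99%. The GATA letters searched were AGATAA. A match or its absence describes only the letters of these windows.

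The channel-forming claudins Cldn2 and Cldn15 had more transcript in CV animals, though limma with condition as the only term called neither. Cldn15 (ENSMUSG00000001739.14, GRCm38 chromosome 5, 136966616 to 136975858), a cation channel claudin of the small intestine, was at 933, 526, 446 and 761 CPM in CV animals of pairs A to D, against 270.0, 406, 47.8 and 377 CPM in their GF littermates. Every CV library lay above every GF one, and the GF library of pair C lay far below the rest. Means were 667 ± 222 CPM in CV and 275 ± 163 CPM in GF animals (SD, n = 4 each). The fitted fold was 3.02 (log2 fold change 1.59, SE 0.58), on the scale of log2(CPM + 0.5). limma gave adjusted p = 0.121 with condition as the only term and adjusted p = 0.0326 with the littermate pair as a block.

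Cldn2 (ENSMUSG00000047230.6, chromosome X, 139800828 to 139811386), which passes sodium and water and is typical of crypts, was at 373, 390.2, 253 and 419.5 CPM in CV animals, against 151, 217, 65.5 and 233 CPM in GF littermates. Here too the groups did not overlap, and pair C held the lowest library of each. Cldn2 averaged 359 ± 73.3 CPM in CV and 167 ± 76.2 CPM in GF animals (SD, n = 4 each), a fitted fold of 2.35 (log2 fold change 1.23, SE 0.40). limma gave adjusted p = 0.0909, and adjusted p = 0.0234 with the littermate block. Within pairs A to D the log2 difference was 1.31, 0.84, 1.94 and 0.85 for Cldn2 and 1.79, 0.37, 3.21 and 1.01 for Cldn15. All 4 pairs had the same direction for both genes, and pair C had the widest gap. All 4 pairs were also higher in CV for Cldn12 and Ocln, which were not called. How many of all tested genes had 4 pairs in 1 direction was not computed.

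Cldn4 differed in the other direction. Cldn4 (ENSMUSG00000047501.3, chromosome 5, 134945119 to 134946934), a barrier-forming claudin and a receptor of the Clostridium perfringens enterotoxin, was at 38.6, 18.6, 47.7 and 105 CPM in CV animals, against 149, 86.0, 223 and 108 CPM in GF littermates. Of the CV libraries only that of pair D reached into the GF range. Means were 52.5 ± 37.1 CPM in CV and 141 ± 60.2 CPM in GF animals (SD, n = 4 each), with a fitted level 3.01-fold higher in GF (log2 fold change -1.59, SE 0.46). limma gave adjusted p = 0.0631, and adjusted p = 0.0193 with the littermate block. Within pairs A to D the log2 difference was -1.93, -2.18, -2.21 and -0.04, so that pair D was nearly level. About 193 to 1572 reads stood behind Cldn4 in CV and 966 to 1941 in GF libraries.

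**Figure D1:**
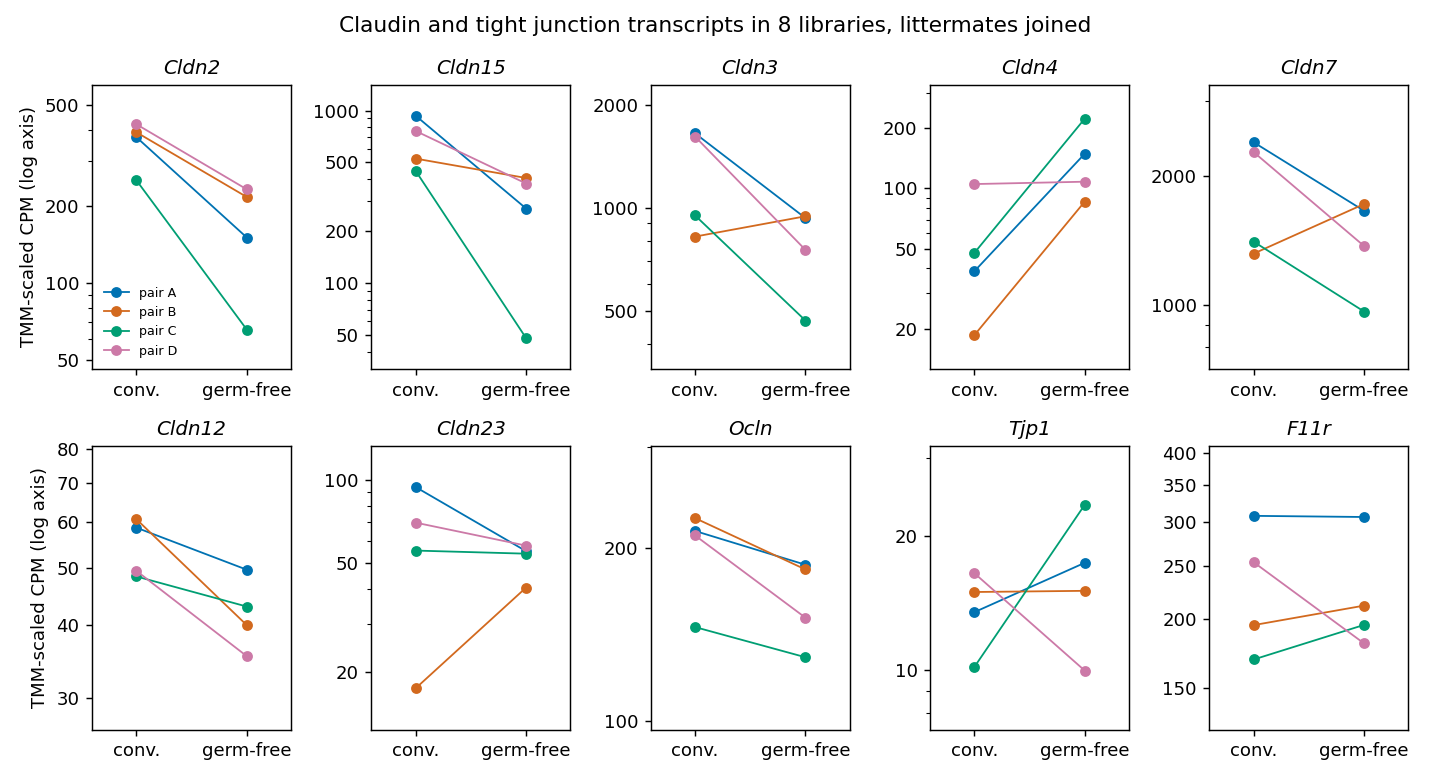
TMM-scaled CPM (log axis, with its own range in each panel) of the 10 genes in each library, CV (conv.) on the left and GF (germ-free) on the right, a line joining the littermates of each pair. All 4 lines slope down towards GF for Cldn2 and Cldn15, while for Cldn4 3 lines slope up and that of pair D is nearly level (105 CPM in CV, 108 CPM in GF).

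Of the 10 genes, limma with condition as the only term called 0 higher and 0 lower, where 1.16% of the 10053 tested genes were called higher and 3.76% lower. At an unadjusted p under 0.05, 2 of the 10 were higher (19.7% of all tested genes) and 1 was lower (8.12%). With the littermate block 2 rose, Cldn2 and Cldn15 (8.08% of all tested genes), and 1 fell, Cldn4 (5.02%). Groups did not overlap for 2 of the 10 with CV above (9.03% of all tested genes) and for 0 with CV below (5.88%). The 10 genes had a median log2 fold change of 0.32, where all tested genes had 0.32, and 7 of the 10 were positive, where 70.2% of all tested genes were.

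**Figure D2:**
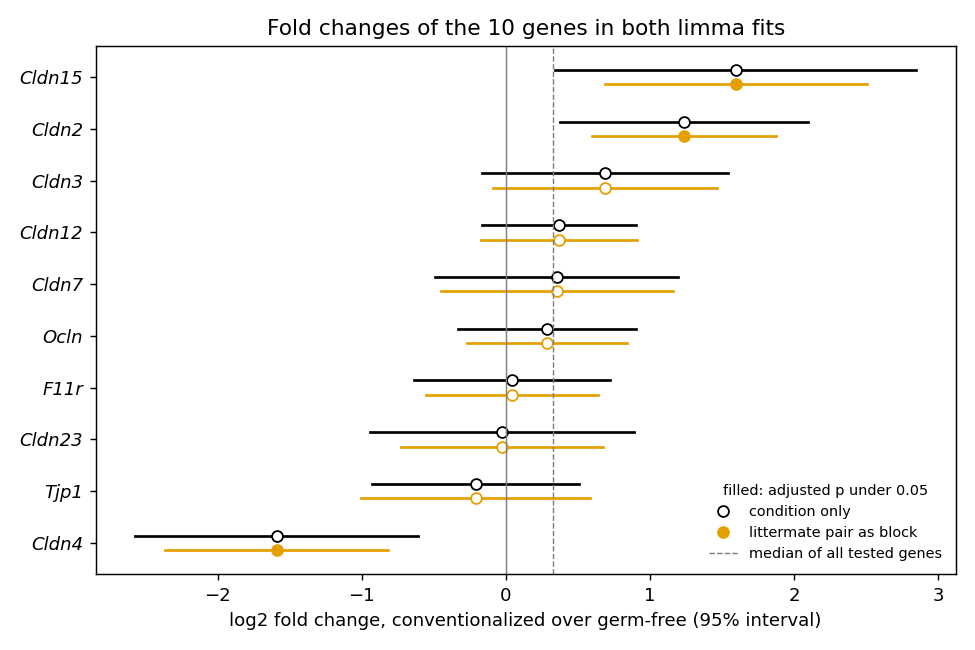
Log2 fold change of each gene, CV over GF, with its 95% interval, in the limma fit with condition only (black) and with the littermate pair as a block (orange). Filled points have adjusted p under 0.05: Cldn15, Cldn2 and Cldn4 with the block, and no gene without it. The dashed line is the median of all tested genes, 0.32.

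The size of the Cldn2 and Cldn15 differences depended on the GF library of pair C. Without it the log2 fold change was 0.84 for Cldn2 and 0.88 for Cldn15 (adjusted p = 0.0967 and 0.0951 by limma). Over all 8 fits that left out 1 library it ran from 0.84 to 1.45 for Cldn2 and from 0.88 to 1.88 for Cldn15. With the block and without pair B, both were called (adjusted p = 0.00349 for Cldn2 and 0.00174 for Cldn15 by limma). With the block and without pair A, C or D, neither was: limma gave adjusted p = 0.0808, 0.144 and 0.0757 for Cldn2 and 0.0632, 0.171 and 0.105 for Cldn15. Cldn4 was called in all 4 of those fits (adjusted p = 0.0070 to 0.0304 by limma). Without the block Cldn4 was called when the CV library of pair D (log2 fold change -2.04, limma adjusted p = 0.0186) or the GF library of pair B (-1.83, limma adjusted p = 0.0348) was left out, and not in the other 6 such fits.

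**Figure D3:**
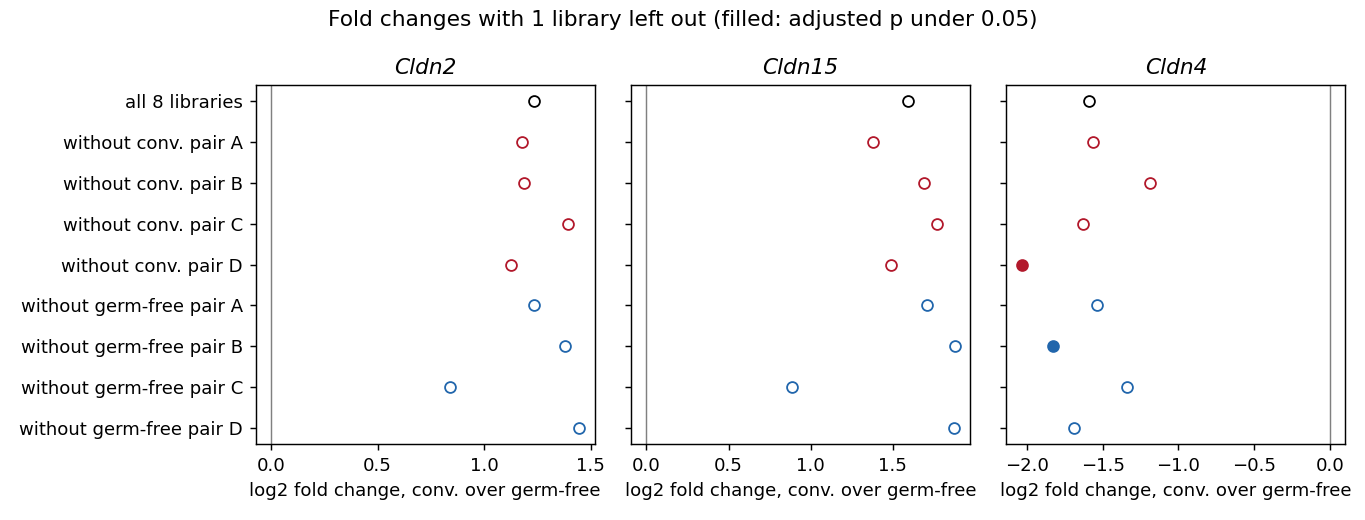
Log2 fold change, CV (conv.) over GF, of Cldn2, Cldn15 and Cldn4 with all 8 libraries and with each left out, in the limma fit with condition only. Red points lack a CV library, blue points a GF one, and filled points have adjusted p under 0.05. No point crosses 0, and for Cldn2 and Cldn15 the point without the GF library of pair C (0.84 and 0.88) lies nearest to it.

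The balance between Cldn2 and Cldn15 was measured as the log2 ratio of their CPM within a library. It was -1.32, -0.43, -0.82 and -0.86 in CV animals of pairs A to D, against -0.84, -0.90, 0.45 and -0.69 in GF littermates. The GF library of pair C was the 1 library of 8 with more Cldn2 than Cldn15 CPM. This ratio takes no account of gene length. Per kb of annotated exons that library had less Cldn2 (19.7 CPM per kb) than Cldn15 (22.5 CPM per kb), as did every other library. Mean ratios were -0.86 ± 0.36 in CV and -0.50 ± 0.64 in GF animals (SD, n = 4 each). The difference of -0.36 did not pass an exact two-sided permutation test (p = 0.429, smallest possible 0.0286), and it was -0.04 without the GF library of pair C.

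The other claudins were not called in either fit. Cldn7 (ENSMUSG00000018569.12, chromosome 11, 69964779 to 69967885), which binds Epcam along the lateral membrane, was at 2399, 1320.3, 1408 and 2276 CPM in CV animals, against 1661, 1723, 967 and 1375 CPM in GF littermates (log2 fold change 0.35, 95% interval -0.49 to 1.20, limma adjusted p = 0.55). Cldn3 (ENSMUSG00000070473.4, chromosome 5, 134986214 to 134987472), a barrier-forming claudin whose gene lies near Cldn4, was at 1651, 824, 950.4 and 1615 CPM in CV animals, against 933, 945, 469 and 754 CPM in GF littermates (log2 fold change 0.69, 95% interval -0.17 to 1.54, limma adjusted p = 0.254). For both genes the CV animal was below its littermate in pair B and above it in the other 3 pairs, and with the block and without pair B Cldn3 was called (limma adjusted p = 0.0257). Cldn3 overlaps an annotated antisense gene, Wbscr25, and this library kit does not tell strands apart.

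Cldn12, which lacks the PDZ-binding end of most claudins, was at 54.4 ± 6.26 CPM in CV and 42.0 ± 6.03 CPM in GF animals (SD, n = 4 each). With TMM scaling it was higher in the CV animal of all 4 pairs, by log2 differences of 0.17 to 0.60 (limma adjusted p = 0.315). The share of all tested genes with all 4 pairs in 1 direction was not computed. The log2 fold change of Cldn12 was 0.37, but 0.14 when scaled by library size only and 0.17 by the upper quartile. Cldn23, another member of the family, was at 94.1, 17.4, 55.3 and 69.8 CPM in CV animals, against 55.0, 40.6, 53.8 and 57.6 CPM in GF littermates. Its GF values lay close together, and the CV library of pair B was the lowest of all 8. The log2 fold change was -0.03 (95% interval -0.94 to 0.89, limma adjusted p = 0.971), and 0.47 without that library.

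The membrane partners and the scaffold gave no call in either fit. Ocln, which encodes occludin, was at 215, 226, 146 and 211 CPM in CV animals, against 187, 184, 129 and 152 CPM in GF littermates (log2 fold change 0.28, 95% interval -0.33 to 0.90, limma adjusted p = 0.511). With TMM scaling the CV animal was higher in all 4 pairs, by 0.17 to 0.47 on the log2 scale, and pair C was the lowest in both groups. The log2 fold change of Ocln was 0.05 when scaled by library size only and 0.09 by the upper quartile, so its size depended on the scaling. F11r, which encodes junctional adhesion molecule A, averaged 232 ± 62.0 CPM in CV and 224 ± 56.6 CPM in GF animals (SD, n = 4 each). Its log2 fold change was 0.04 (95% interval -0.64 to 0.72, limma adjusted p = 0.938), but -0.19 when scaled by library size only and -0.16 by the upper quartile. Tjp1, which encodes the scaffold protein ZO-1, was at 13.5, 15.0, 10.2 and 16.5 CPM in CV animals, against 17.4, 15.1, 23.5 and 9.98 CPM in GF littermates (log2 fold change -0.21, 95% interval -0.93 to 0.51, limma adjusted p = 0.688). Genes annotated within the Tjp1 span, Gm44794, Gm44792 and Gm44795, may share its reads. A p that misses the threshold does not show that these levels were equal.

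Levels of different genes were compared as CPM per kb of annotated exons. In CV animals Cldn3 (1001 ± 345 CPM per kb) and Cldn7 (950.2 ± 290.4) came first, then Cldn15 (314 ± 105), Cldn2 (108 ± 22.0), F11r (86.9 ± 23.3), Ocln (47.2 ± 8.56), Cldn23 (32.0 ± 17.4), Cldn4 (28.9 ± 20.5), Cldn12 (12.9 ± 1.48) and Tjp1 (1.77 ± 0.347; SD, n = 4 each). In GF animals the order was Cldn7 (735 ± 177 CPM per kb), Cldn3 (616 ± 177), Cldn15 (129.6 ± 76.5), F11r (84.0 ± 21.2), Cldn4 (77.9 ± 33.1), Cldn2 (50.1 ± 22.9), Ocln (38.6 ± 6.55), Cldn23 (28.0 ± 4.13), Cldn12 (9.94 ± 1.43) and Tjp1 (2.11 ± 0.720; SD, n = 4 each). The gap between neighbours in this order was often smaller than the larger of their SDs. In CV animals this held for Cldn3 and Cldn7, for Cldn2 and F11r, among Ocln, Cldn23 and Cldn4, and for Cldn4 with Cldn12. In GF animals it held for Cldn7 and Cldn3, for Cldn15 with F11r and Cldn4, and for F11r with Cldn4. It also held for Cldn4 with Cldn2 and for Cldn2 with Ocln. An SD between animals does not measure the order within a library. Cldn7 was above Cldn3 in every GF library (853, 884, 497 and 706 against 741, 750.4, 372 and 599 CPM per kb, pairs A to D). Cldn4 was above Cldn2 in the GF libraries of pairs A and C and below it in B and D. In the CV library of pair B, Cldn12 (14.4 CPM per kb) was above Cldn4 (10.2) and Cldn23 (9.44). The places of Cldn2, Cldn4, Cldn12 and Cldn23 in the order are therefore not settled.

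Shares within the summed level per kb of the 7 claudins do not depend on how libraries are scaled to each other. Cldn15 made up 11.5 to 14.3% in CV and 2.10 to 10.8% in GF libraries, and Cldn4 0.590 to 1.90% in CV and 2.4 to 11.4% in GF libraries. The extreme GF value of each was that of pair C. Without that library the mean share of Cldn4 differed by -2.30 percentage points (CV minus GF) in place of -4.30, and that of Cldn15 by 3.78 in place of 5.52. Cldn7 made up 38.4 to 39.5% in CV and 42.8 to 46.3% in GF libraries, while its CPM overlapped between the groups. For Cldn15, Cldn4 and Cldn7 the shares did not overlap, with the exon length or that of the longest transcript. These claudins were picked out after their values were seen, and no background share was computed for this measure. Shares overlapped for Cldn2 (3.53 to 6.78% in CV, 1.84 to 4.24% in GF) and Cldn3 (37.8 to 42.2% in CV, 34.7 to 39.2% in GF). Shares add up to a fixed total, so more of 1 claudin means less of the others, and no test was made.

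**Figure D4:**
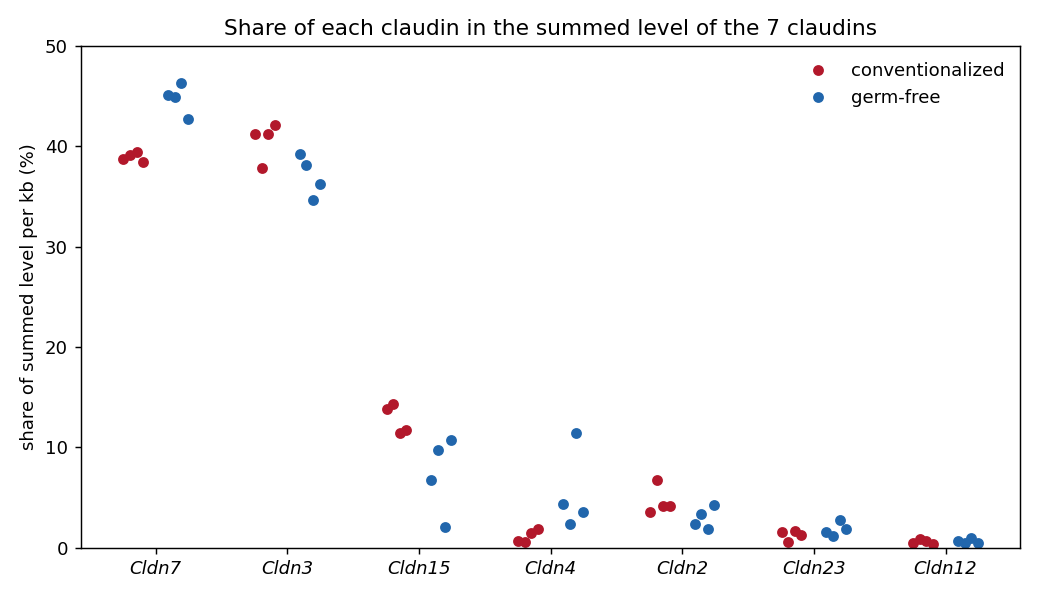
Share (%) of each claudin in the summed level per kb of the 7 claudins, 1 point per library, CV (red) left of GF (blue). The groups separate for Cldn7 (38.4 to 39.5% in CV, 42.8 to 46.3% in GF), Cldn15 (11.5 to 14.3% in CV, 2.10 to 10.8% in GF) and Cldn4 (0.590 to 1.90% in CV, 2.4 to 11.4% in GF).

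In the claudin family as a whole, 9 of 25 genes passed the expression minimum, the 7 above with Cldnd1 and Cldn8. Cldnd1, a claudin-related gene, was at 71.9 ± 19.9 CPM in CV and 41.0 ± 13.1 CPM in GF animals (SD, n = 4 each; limma adjusted p = 0.124). Cldn8 passed only through the CV group (10.6 to 13.8 CPM, against 4.36 to 8.01 CPM in GF), so it had to differ. Cldn1, a barrier claudin, did not pass, at 0.0962 to 0.268 CPM in CV and 1.43 to 4.25 CPM in GF libraries. Cldn5, an endothelial claudin, was at 0 to 0.669 CPM in CV and 0 to 0.178 CPM in GF libraries, and Cldn17 was listed at 0 in all 8.

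Among 26 tested further tight junction genes limma called 0 higher and 1 lower, and with the littermate block 2 higher and 2 lower. Over all tested genes 1.16% were called higher and 3.76% lower, and 8.08% and 5.02% with the block, so the block counts are near the background. Their median log2 fold change was 0.40, where all tested genes had 0.32. Synpo, which encodes the actin-associated protein synaptopodin, fell in both fits, to 4.63 to 12.1 CPM in CV, against 40.2 to 99.5 CPM in GF libraries (log2 fold change -2.76, SE 0.36, limma adjusted p = 0.00548). Synpo reached 10 CPM in 1 CV library and passed the minimum through the GF group, so, like Cldn8, it had to differ. With a minimum of 1 CPM, which all 8 libraries reach, limma gave adjusted p = 0.0052. Arhgef2, a RhoA exchange factor held at tight junctions, fell with the block only (26.4 ± 2.67 CPM in CV and 50.7 ± 7.69 CPM in GF animals, SD, n = 4 each, limma adjusted p = 0.0429, and 0.0534 without the block). The scaffold gene Tjp3, a relative of Tjp1, rose with the block only (331 ± 79.7 CPM in CV and 151 ± 54.7 CPM in GF animals, SD, n = 4 each, limma adjusted p = 0.0225, and 0.0771 without it). Ybx3, a DNA-binding protein that ZO-1 can hold, rose with the block only (297.8 to 568 CPM in CV and 65.6 to 290.3 CPM in GF libraries, limma adjusted p = 0.0326, and 0.111 without it). With the block and 1 pair left out, limma called Arhgef2, Tjp3 and Ybx3 without pair B and lost all 3 without pair A, C or D, where adjusted p ran up to 0.194, 0.109 and 0.182. Ildr1, an angulin of tricellular contacts, was at 21.0 to 31.5 CPM in CV and 39.2 to 76.7 CPM in GF libraries (limma adjusted p = 0.069, and 0.0518 with the block).

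Of 12 tested adherens junction genes limma called 0 with condition only, 3 being higher at an unadjusted p under 0.05 (19.7% of all tested genes), and 1 rose with the block (8.08% of all tested genes). That gene was Nectin2, an adhesion molecule, at 166.5 to 272 CPM in CV and 51.8 to 142 CPM in GF libraries (limma adjusted p = 0.0219 with the block, and 0.0714 without it). Nectin3 (105 to 192 CPM in CV, 52.7 to 117 CPM in GF), the catenin gene Ctnnd1 (98.7 to 159 CPM in CV, 67.3 to 108 CPM in GF) and Epcam were not called. Of 7 tested desmosome genes limma called 0, 1 being higher at an unadjusted p under 0.05, and 1 rose with the block, the desmosomal cadherin gene Dsc2 (72.9 to 145 CPM in CV, 29.0 to 71.5 CPM in GF, limma adjusted p = 0.0175, and 0.0705 without the block). Dsg2, another desmosomal cadherin gene (94.0 to 162 CPM in CV, 82.0 to 101 CPM in GF), and the plaque genes Dsp (55.5 to 99.6 CPM in CV, 38.3 to 76.7 CPM in GF) and Pkp3 (63.6 to 131 CPM in CV, 38.9 to 77.7 CPM in GF) were not called.

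Of 17 tested regulators limma called 0, 4 being higher at an unadjusted p under 0.05 (19.7% of all tested genes), and 1 rose with the block (8.08% of all tested genes). That gene was the vitamin D receptor Vdr, at 620 to 931 CPM in CV and 256 to 507 CPM in GF libraries (limma adjusted p = 0.0494 with the block, and 0.108 without it). With the block and 1 pair left out, limma called Nectin2, Dsc2 and Vdr without pair B and lost all 3 without pair A, C or D, where adjusted p ran up to 0.112, 0.0768 and 0.25. The epithelial transcription factor gene Grhl2 was at 32.8 ± 2.99 CPM in CV and 17.8 ± 6.14 CPM in GF animals (SD, n = 4 each; limma adjusted p = 0.0569 with the block). The membrane protease genes Prss8 (103 to 162 CPM in CV, 33.5 to 93.2 CPM in GF) and St14 (204 to 483 CPM in CV, 121 to 295 CPM in GF) were not called. Median log2 fold changes were 0.44 for adherens junction genes, 0.53 for desmosome genes and 0.46 for regulators, where all tested genes had 0.32, and the shares of these lists called were near those of all tested genes or rested on 1 gene.

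**Figure D5:**
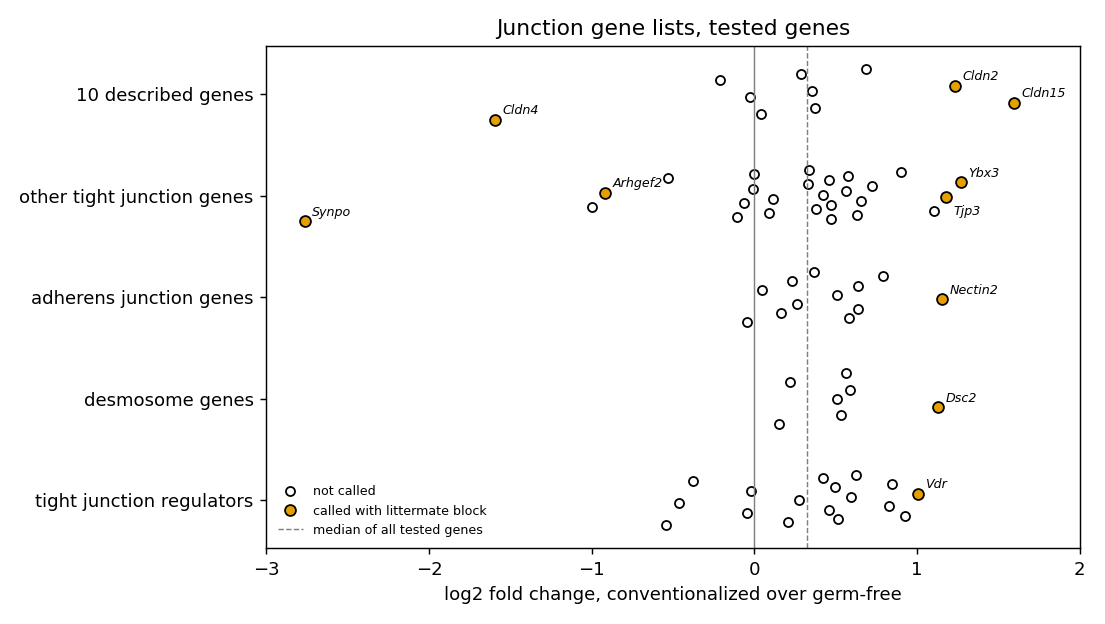
Log2 fold change, CV over GF, of every tested gene among the 10 described genes and 4 related lists (height within a list has no meaning). Filled points were called by limma with the littermate block, and the dashed line is the median of all tested genes (0.32). Synpo at -2.76 lies farthest left and Cldn15 at 1.59 farthest right.

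Cell type markers moved with the same groups. Their counts are given with condition only, where 1.16% of all tested genes were called higher and 3.76% lower, and with the littermate block, where 8.08% and 5.02% were. Beside the higher Cldn2 and Cldn15 levels, sums over 20 active stem cell markers were 6473 to 12427 CPM in CV and 1366 to 6576 CPM in GF libraries, overlapping by 1 library of each group. Of the 19 tested, 2 were called higher, and 8 with the block. Sums over 20 mitosis genes were 2067 to 2731 CPM in CV and 308 to 1333 CPM in GF libraries, with 11 called higher, and 19 with the block. Beside the lower Cldn4 level, sums over 25 enteroendocrine markers were 10823 to 27921 CPM in CV and 46174 to 106459 CPM in GF libraries, with 17 called lower, and 21 with the block. None of these 3 lists had a call in the other direction in either fit.

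Sums of the other epithelial lists overlapped between the groups. Those of 23 absorptive enterocyte markers were 1882 to 5570 CPM in CV and 2920.3 to 6759 CPM in GF libraries, with 4 of 20 tested called lower, and 5 with the block. Sums over 12 tuft cell markers were 107 to 976 CPM in CV and 420.0 to 1097 CPM in GF libraries, and all 9 tested had a negative log2 fold change (median -0.93) with 0 called in either fit. Sums over 12 Paneth cell markers were 7134 to 10968 CPM in CV and 2878 to 17587 CPM in GF libraries. Of the 12 tested, 11 had a positive log2 fold change (median 0.88), and 1 was called higher in either fit. At an unadjusted p under 0.05 by limma, 5 were higher (19.7% of all tested genes). Over all tested genes, the background for the tuft and Paneth lists, 70.2% had a positive log2 fold change, with a median of 0.32. Of the sums over 12 goblet cell markers, that of the CV library of pair A, the library with most Cldn23, was 53123 CPM, and the other 7 were 1755 to 8437 CPM. The GF library of pair C, lowest in Cldn2 and Cldn15 and highest in Cldn4, also had the lowest stem cell and mitosis sums. The part of these markers in the claudin differences was not tested. In sorted pools, fewer cells of a type and less RNA per cell cannot be told apart.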

How the data were processed

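RNA from 8 libraries, 1 per animal, was compared. The table deposited by the authors gives a normalized signal for each gene, and how it was made is not stated for this table. For genes with 1 annotated transcript 99.9% of values, and for genes with several 30.4%, were whole multiples (tolerance 0.02) of a step that each library has, so the values behave like estimated read numbers rescaled per library and are not raw counts. Per the submitters' processing notes, the tools included STAR 2.4.2a and Trimmomatic 0.36, with DESeq2 1.12.4 in R 3.3.1 and the build mm10. The series text names Salmon and a minimum of 10 CPM. Of 48440 identifiers, 48058 were matched to GENCODE M21 (GRCm38).

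Signals were scaled to CPM with TMM factors computed from the published formula. The 10053 genes reaching 10 CPM in 4 or more libraries were tested on log2(CPM + 0.5), a pseudocount that shrinks fold changes of low genes. limma 3.58.1 in R 4.3.3 (trend, robust, condition only) gave two-sided p-values, adjusted by Benjamini-Hochberg over all tested genes and called under 0.05. The fit with condition only was run on simulated data without littermate structure, and the fit with the littermate block was not tested in this way. Replicates are separate animals, and reads without molecular identifiers are not independent molecules.

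The labels name the littermate pairs, so the design pairs the libraries. Deviations from group means correlated within pairs A to D by 0.14, -0.16, 0.31 and -0.01. The text names the 10 genes, and from 5 lists of junction genes the called ones and those of lowest p up to 4 a list. Ybx3, Cldn1, Cldn5, Cldn8, Cldn17 and the claudin shares were chosen after their values were seen. The members and lists were chosen with earlier results of these data known. Other scalings, pseudocounts, filters, weights and left-out libraries were tried.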

Additional observations from a re-analysis of the deposited data

Results flagged for a closer look

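Ocln in the CV library of pair C (146 CPM, where the other 3 CV libraries had 211 to 226 CPM) was set apart at the low end, its gap to the nearest library being 0.841 of the group's range of log2 values. The log2 ratio of Cldn2 to Cldn15 in the GF library of pair C (0.45, where the other 3 GF libraries had -0.90 to -0.69) was set apart at the high end, with a gap of 0.848 of the range. Both gaps pass Dixon's limit for 4 samples. Chance flags about 1 in 20 groups, and 22 groups were examined.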

How the results depend on the processing

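Against 0 of the 10 genes called higher and 0 called lower, the replicate block (littermate pair) gave 2 and 1, sample quality weights 2 and 0, and library size only, upper-quartile scaling, and leaving out the GF library of pair C with the CV library of pair A each gave 0 and 1. Without 1 library the counts were 0 to 0 and 0 to 1. With the block and 1 pair left out, chosen after seeing the data, they were 0 to 3 and 1 to 1. The block changed no other call among the 10. Over all tested genes the 117 higher and 378 lower calls became 812 and 505 with the block, 53 and 403 with upper-quartile scaling, 45 and 311 with no filter, 765 and 608 with weights, and 235 and 407 without those 2 libraries. They ran from 14 to 410 and 151 to 372 without 1 library, and with the block were 321 and 269 without pair A, 2408 and 537 without pair B, 174 and 284 without pair C, and 47 and 294 without pair D. The median log2 fold change of all tested genes was 0.32 with TMM, 0.09 with library size only and 0.12 with upper-quartile scaling, and higher genes were 23.6%, 19.2% and 11.6% of calls.

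Cldn2, Cldn15 and Cldn4 kept their direction in all 23 alternatives, over 0.81 to 1.45, 0.70 to 2.03 and -2.14 to -1.19 on the log2 scale. F11r turned to -0.19 with library size only, -0.16 with upper-quartile scaling, -0.045 with weights, -0.16 without the 2 libraries and -0.14 with the block and without pair D, and ran from -0.14 to 0.20 without 1 library. Cldn23 turned to 0.14 with weights and 0.38 with the block and without pair B, and ran from -0.36 to 0.47 without 1 library. Tjp1 turned to 0.12 with the block and without pair C. The cause of these shifts was not tested. The ratio difference of Cldn2 to Cldn15 ran from -0.50 to -0.04 without 1 library, and sign flips within pairs gave an exact p of 0.375 (smallest possible 0.125).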
